A study of Homo sapiens with 10 samples.

Results

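LINC genes are long intergenic non-coding RNA genes that carry a serial LINC symbol because no function had given them another name. They were followed here in heart muscle cells differentiated from the human embryonic stem cell line H1, in which a GapmeR was used against an RNA called CLIPPER. Genes were chosen by class, name and control level: the row was a long non-coding RNA, its GENCODE symbol began with LINC0, LINC1, LINC2 or LINC-, and its mean in the 5 control libraries was at least 0.5 CPM (the count divided by the library total and multiplied by 1e6). Of 78932 gene rows, 2179 carried such a symbol, and 243 of these reached the control level. Because the control values chose the genes, a LINC gene that was low in controls and high after knockdown is not among the 243, whereas a gene high in controls and low after knockdown is. The level in the control libraries is therefore a description, and the balance of rises and falls depends on this choice.

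On day 9 of differentiation, beating cells were transfected with a lipid reagent and 50 nM of either the control GapmeR or the CLIPPER GapmeR, and RNA was taken after 48 hours. A GapmeR is an antisense oligonucleotide that pairs with its target RNA and recruits RNase H to cut it. Both groups came from the same cell line, which the labels call WT in the control libraries and GapmeR Knockdown in the others. There were 5 control and 5 knockdown libraries of ribosomal RNA-depleted total RNA. The labels do not say whether the replicates were separate cultures or differentiations, so p-values measure the spread between these libraries, which may be technical. The targeted RNA itself was not analysed here, so the labels were not checked against it.

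Many long intergenic RNAs are transcribed by RNA polymerase II, capped, spliced and kept in the nucleus, where the exosome and its adaptor complexes remove them soon after synthesis. Their levels are usually low and tend to follow cell type more closely than those of messenger RNAs. Some act on chromatin or on neighbouring genes, some serve as hosts for smaller or circular RNAs, and for most no function is known.

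The libraries held 32.9 to 45.1 in units of 1e6 counts, and 1 count stood for 0.0222 to 0.0304 CPM. Of 12 cardiomyocyte markers 11 were lower in knockdown cells, beside 39.6% of all tested genes, and their summed level was 42197 to 60921 CPM in controls and 16223 to 31598 CPM after knockdown. Markers of other cells were much lower. The summed level of 9 pluripotency markers was 7.37 to 10.6 CPM in controls and 8.11 to 9.27 CPM in knockdown libraries, with PRDM14 at 0 counts in all 10 libraries. Within it DNMT3B fell from 7.76 to 4.09 CPM, whereas LIN28A rose from 0.254 to 2.53 CPM and ZFP42 from 0.139 to 0.804 CPM. Endoderm markers summed to 5.46 to 7.1 CPM and 12.4 to 18 CPM, nearly all of it APOA1 (5.94 and 14.8 CPM), with the other 7 of 8 below 0.5 CPM in both groups. Neural markers summed to 4.62 to 5.97 CPM and 3.8 to 4.53 CPM, and endothelial markers to 28.2 to 50.3 CPM and 7.64 to 18.8 CPM. Most of the endothelial sum was KDR (36.1 and 12 CPM), with 4 of 6 markers below 0.5 CPM in both groups. Stromal and epicardial markers summed to 401 to 454 CPM and 389 to 442 CPM, mostly COL1A1 (371 and 375 CPM), which did not pass the test. Of the 6 stromal and epicardial markers tested, 4 fell (66.7%). Smooth muscle markers summed to 1146 to 2250 CPM and 550 to 973 CPM. The part of these shifts in the LINC results was not tested, and in bulk RNA fewer cells of a type cannot be told apart from less RNA per cell.

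Of the 243 LINC genes 242 were tested. The exception, LINC01324, did not pass the filter on low counts. By the quasi-likelihood test of edgeR, adjusted over all 21033 tested genes, 179 (74.0%) changed at an adjusted p below 0.05, beside 79.7% of all tested genes. In knockdown cells 79 LINC genes (32.6%) were higher, beside 40.1% of all tested genes, and 100 (41.3%) were lower, beside 39.6%. The remaining 63 did not pass. The change was at least 2-fold in 51 of the rises and 71 of the falls. The 5 control and 5 knockdown values did not overlap for 133 LINC genes (55.0%, 64 upward and 69 downward), beside 64.2% of all tested genes. The median log2 fold change was -0.18, with a range of -4.04 to 5.42, and the median over all tested genes was 0.01. With upper-quartile factors the LINC median was 0.01, with 93 rises and 86 falls, and with a filter at a mean of 1 CPM it was 0.34, with 78 rises and 45 falls among 160 genes. With the first scaling and filter, the share of LINC genes that fell was close to that of all genes, and the share that rose was smaller.

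The balance of rises and falls differed with the choice of genes and with the scaling. Among all 378 LINC rows that could be tested, 164 rose and 116 fell, and the median was 0.27 on the log2 scale. There were 84 LINC rows that reached 0.5 CPM in the knockdown mean only, 53 that reached it in the control mean only and 190 that reached it in both. When the same threshold was set on the mean of all 10 libraries, 128 rose, 78 fell and the median was 0.44. Other long non-coding genes at the same control level rose in 1176 of 2543 tested cases (46.2%) and fell in 776 (30.5%), with a median of 0.30. Coding genes at that level rose in 33.7% of 13964 cases and fell in 49.1%, with a median of -0.28. Chosen in the same way, the LINC genes lay between these classes in their median and share of falls. Their share of rises (32.6%) was below both, though close to that of coding genes. The classes also differ in median span, at 19.9 kb for LINC genes, 8.09 kb for other long non-coding genes and 35.3 kb for coding genes. In the same order, median control levels were 1.36, 1.54 and 23 CPM, and 26%, 23.2% and 17.2% did not pass. The part of span and level in these shares was not tested. Among the other long non-coding genes, those named as divergent transcripts (-DT) rose in 65.2% and fell in 14.8% of 256 cases, and antisense genes (-AS) rose in 51.1% and fell in 26.3% of 556 cases.

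**Figure D1:**
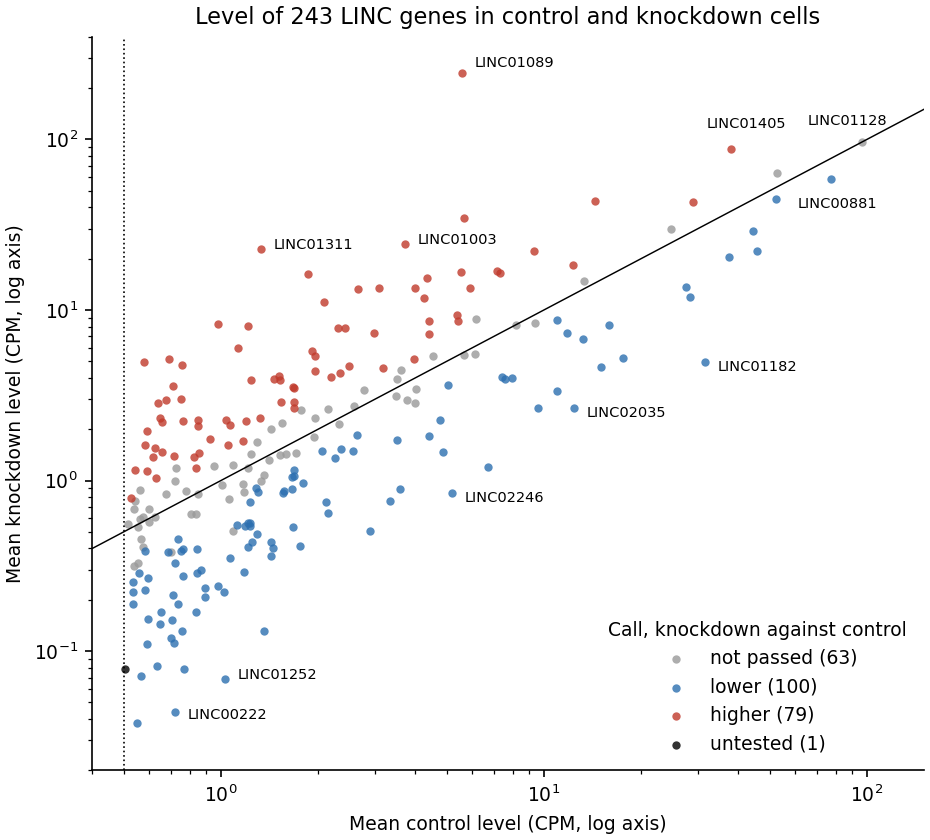
Mean level of each of the 243 LINC genes in the 5 control libraries (x axis) and the 5 knockdown libraries (y axis), in CPM on log axes, coloured by the call of the test. The solid line marks equal levels and the dotted line the 0.5 CPM control mean that chose the genes. LINC01089 stands far above the line at 244 CPM, and LINC00222 and LINC01252 lie furthest below it among the labelled genes.

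The rising and falling genes were called from these same libraries, so the gap between the groups follows from that choice. The values below describe only the spread within each group. Relative to the mean of the controls, the median log2 difference of the 79 rising genes was between -0.12 and 0.15 in control libraries and between 1.15 and 1.49 in knockdown libraries. For the 100 falling genes it was between -0.15 and 0.17 in controls and between -0.89 and -1.67 in knockdown libraries. Knockdown library 2 lay nearest to the controls most often, in 37 of the 79 rises and 55 of the 100 falls. The summed level of the 243 genes was 1070 to 1269 CPM in control libraries and 1494 to 1702 CPM in knockdown libraries. Without LINC01089 these sums were 1065 to 1262 CPM and 1234 to 1435 CPM, which overlap.

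**Figure D2:**
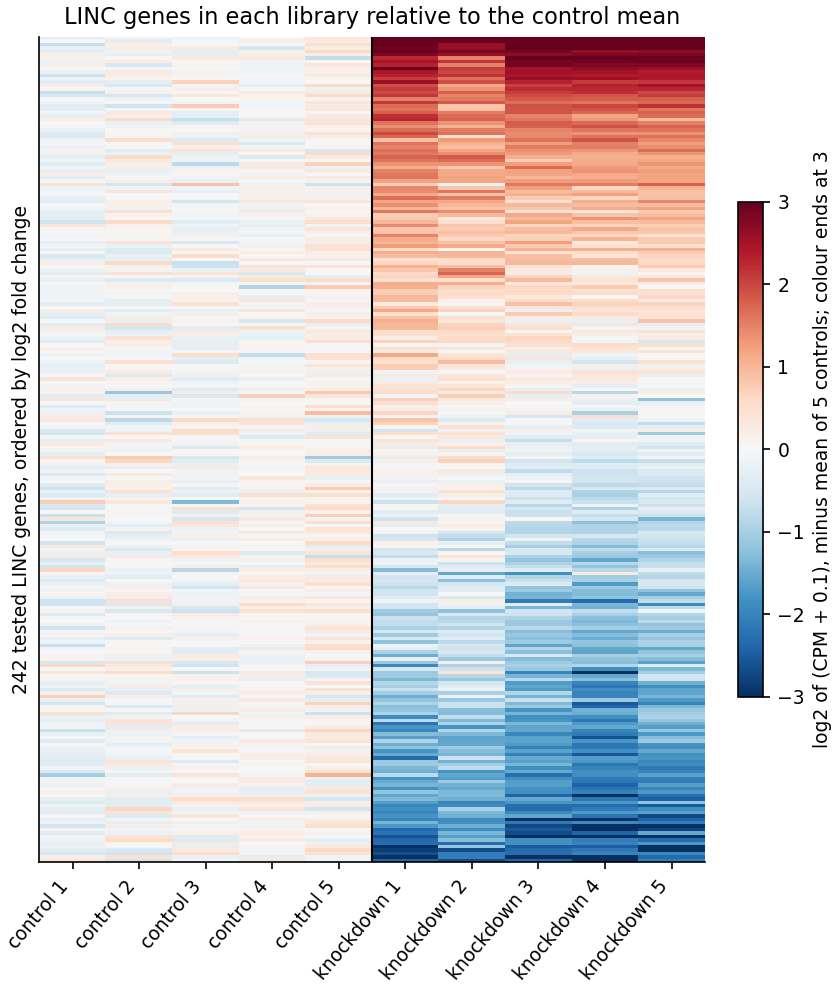
Each row is 1 of the 242 tested LINC genes, ordered by log2 fold change, and each column 1 library. Colour shows log2 of (CPM + 0.1) minus the mean of the 5 controls, so red is higher and blue lower than the controls. The order was taken from these same libraries, so the passage from red to blue in the 5 knockdown columns follows from it. Colours are paler in knockdown 2.

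The 6 LINC genes with the highest control CPM contained 4 that fell and 2 that did not pass the test. LINC01128 (ENSG00000228794, chromosome 1, 825138 to 859446, plus strand, GRCh38) had the highest control level of the 243. It was measured at 89.3, 92.4, 95.7, 99.8 and 104 CPM in control libraries 1 to 5 and at 112, 101, 90.3, 83.3 and 96.1 CPM in knockdown libraries 1 to 5. The groups overlapped throughout, and the log2 fold change was -0.05 ± 0.0676 (SE; adjusted p = 0.55). Part of its transcript is near-identical to another annotated gene, so its reads may be divided between them. LINC00881, an RNA enriched in heart muscle cells, was measured at 67.2, 82.7, 74.7, 79.6 and 83.8 CPM in controls. In knockdown libraries it was at 69.6, 75.5, 49.2, 44.3 and 53.2 CPM. Knockdown libraries 1 and 2 lay within the control range and the other 3 below it, and the gene fell by 0.48 on the log2 scale (SE 0.0988; adjusted p = 0.00072). Its nearest coding gene CCNL1, which encodes a cyclin that acts in splicing, lay 11 kb away on the other strand and rose from 95.5 to 200 CPM. LINC00641 was at 52.6 ± 3.08 CPM in controls and 63.3 ± 6.86 CPM after knockdown (SD, n = 5 each; adjusted p = 0.1), and it passed the test when knockdown library 2 was left out (adjusted p = 0.0076).

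LINC01278 was at 52.2 ± 5.42 CPM in controls and 44.9 ± 6.32 CPM after knockdown (SD, n = 5), a fall by 0.27 on the log2 scale with overlapping groups (adjusted p = 0.012). This call was lost with upper-quartile factors (adjusted p = 0.42). LINC01278 overlaps the coding gene SPIN4 on the same strand, which rose from 22.1 to 54.9 CPM. Reads in the stretch they share cannot be assigned with certainty. LINC00667 fell from 45.7 ± 2.97 to 22.3 ± 2.82 CPM, a log2 fold change of -1.08 ± 0.1 (SE; adjusted p = 1.1e-06). Every knockdown library lay below every control library, whereas ZBTB14, a zinc finger repressor gene on the opposite strand of the same locus, rose from 8.4 to 14.6 CPM. LINC00115, a gene of 1 exon on the other strand from LINC01128 and overlapping its 5′ end, fell from 44.3 ± 5.1 to 28.9 ± 1.59 CPM, again with no overlap (log2 fold change -0.65, adjusted p = 0.00022). The counts of genes on opposite strands thus differed at both loci. The strand setting of the counting is not known, so these overlapping genes cannot be told apart with certainty.

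Levels per length, which can be compared between genes, ordered the 243 genes differently. Per kilobase of annotated exon, LINC00881 was highest in controls at 16.4 CPM per kb, followed by LINC00115 at 13.4 and LINC01629 at 13.2. The median of the 243 genes was 0.443 CPM per kb in controls and 0.43 after knockdown. LINC01089 was at rank 41 in controls with 1.35 CPM per kb and at rank 1 after knockdown with 59.0 CPM per kb. LINC01311 at 15.6 and LINC03073 at 14.6 CPM per kb came next in knockdown cells. These 3 rising genes thus took the first 3 places per length.

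LINC01089 showed the largest rise and the smallest p of the 243. It is also called LIMT and has been described as an RNA that restrains metastasis of breast cancer cells. The gene has 7 exons and lies on the minus strand of chromosome 12 (121795267 to 121803906, GRCh38), where it overlaps the coding gene RHOF on the same strand. In control libraries 1 to 5 it was measured at 4.41, 5.97, 4.92, 5.66 and 6.95 CPM. In knockdown libraries 1 to 5 it was at 267, 181, 254, 260 and 258 CPM. All 5 knockdown values lay far above all controls, and knockdown 2 was the lowest of them. The log2 fold change was 5.42 ± 0.186 (SE; adjusted p = 4.3e-09), or 42.9-fold. RHOF, which encodes a small GTPase that shapes filopodia, rose from 21.4 to 49.9 CPM (log2 fold change 1.17, adjusted p = 1.5e-06). Reads in the stretch that both genes share cannot be assigned to either with certainty.

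LINC01311, a gene of 1 exon and 1.46 kb on chromosome 22 (19171395 to 19172851, plus strand), followed with a log2 fold change of 4.07 ± 0.167 (SE; adjusted p = 9.1e-09). It was measured at 1.27, 1.02, 1.28, 1.49 and 1.58 CPM in control libraries and at 25.6, 17.8, 24.9, 23.7 and 21.8 CPM in knockdown libraries. Its groups were far apart. SLC25A1, the mitochondrial citrate carrier gene 2.73 kb away on the other strand, rose from 24.5 to 79.4 CPM. LINC02298 on chromosome 14 (105092737 to 105100131, plus strand) was measured at 0.792, 0.577, 0.537, 0.771 and 0.789 CPM in controls. After knockdown it was at 5.41, 4.63, 4.97, 5.36 and 5.47 CPM, a narrow band 7.23-fold above the controls (log2 fold change 2.85 ± 0.171, SE; adjusted p = 5.4e-08). LINC01503 was at 3.89, 4.26, 3.97, 4.07 and 5.53 CPM in controls and at 19.2, 15.7, 13.8, 13.4 and 14.4 CPM after knockdown (log2 fold change 1.76, adjusted p = 5.7e-08). LINC03073, a gene of 1 exon that starts 2.77 kb from the start of TNRC18 on the opposite strand, was at 5.24 to 6.32 CPM in controls. It was at 46.5, 24.4, 32.4, 36.1 and 34.4 CPM in knockdown libraries (log2 fold change 2.58, adjusted p = 6e-08). TNRC18, which encodes a reader of a repressive histone mark, moved the other way, from 349 to 156 CPM, as did FBXL18, an F-box gene 0.769 kb from the other end of LINC03073, from 45.1 to 21.6 CPM.

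**Figure D3:**
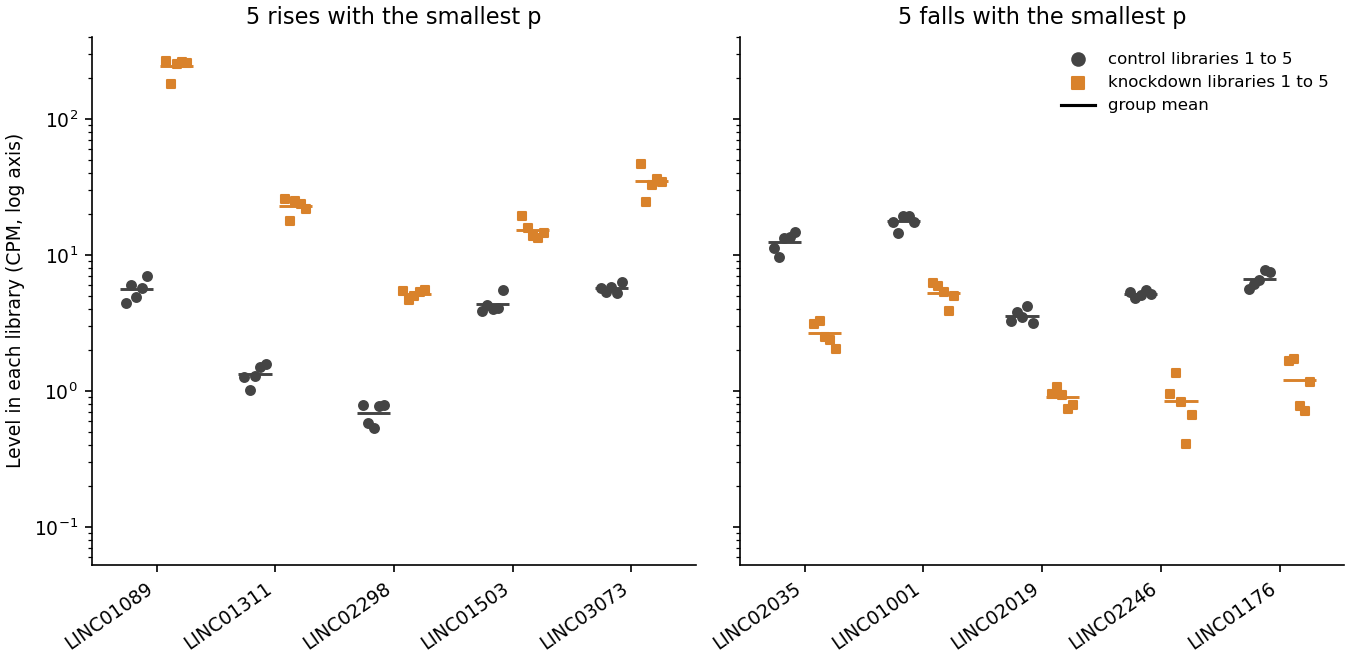
Level in each library of the LINC genes with the smallest p, 5 rising and 5 falling, in CPM on a log axis. Circles are control libraries 1 to 5, squares knockdown libraries 1 to 5, in that order from left to right, and bars the group means. The 10 genes were picked by p in these same libraries, so the gap between their groups is not a separate result. Knockdown 2 is the lowest knockdown value of LINC01089 at 181 CPM.

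The other large rises were LINC02701, LINC01011, LINC00173, LINC02960, LINC01003 and LINC02693. LINC02701 was at 1.08 to 2.58 CPM in controls and 11.4 to 19.1 CPM in knockdown libraries (log2 fold change 3.11). LINC01011, at 0.638 to 1.19 and 6.35 to 9.82 CPM, overlaps NQO2, a quinone reductase gene on the same strand, which fell by 0.32 on the log2 scale (adjusted p = 0.035). LINC00173 was at 0.432 to 0.895 CPM in controls and 4.03 to 7.42 CPM after knockdown. Absence of overlap between the groups was a condition for the list of 10 largest rises and is not a result. LINC02960, a gene of 1 exon, was at 0.658 to 1.44 CPM in controls and 3.47 to 10.8 CPM after knockdown. LINC01003 rose from 3.71 ± 0.436 to 24.5 ± 5.53 CPM (SD, n = 5), and its nearest coding gene KMT2C, a histone H3 lysine methyltransferase gene 27.1 kb away on the other strand, fell from 220 to 33.9 CPM. LINC02693, at 0.511 to 0.974 and 2.26 to 6.12 CPM, was the only one of the 10 largest rises with a span above 10 kb. Of these 10 genes 4 have a single exon. Their nearest coding genes were higher in 4 cases, lower in 4 and did not pass in 2.

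The falls with the smallest p were of genes with moderate control levels. LINC02035 (chromosome 3, 122886941 to 122892416, plus strand, 1 exon) was at 11.2, 9.63, 13.2, 13.5 and 14.6 CPM in controls and at 3.08, 3.28, 2.5, 2.37 and 2.04 CPM after knockdown. The groups were far apart (log2 fold change -2.27 ± 0.13, SE; adjusted p = 4.3e-08). SLC49A4, a transporter gene 5.8 kb away on the same strand, fell from 11.3 to 3.44 CPM. LINC01001 (chromosome 11, 127204 to 139612, minus strand) was at 17.5, 14.5, 19.2, 19.3 and 17.5 CPM in controls and at 6.24, 5.94, 5.29, 3.84 and 4.99 CPM in knockdown libraries (log2 fold change -1.80 ± 0.109, SE; adjusted p = 5.7e-08). LINC02019, a gene of 1 exon, fell from 3.58 ± 0.414 to 0.896 ± 0.134 CPM (SD, n = 5; adjusted p = 1.5e-07). It lies 2.88 kb from DOCK3 on the same strand, a guanine nucleotide exchange factor gene that fell from 14 to 2.06 CPM. LINC02246 was at 4.82 to 5.53 CPM in controls and 0.408 to 1.35 CPM after knockdown, and LINC01176 at 5.57 to 7.73 and 0.707 to 1.71 CPM. LINC01001 and LINC02246 have near-identical copies elsewhere, so their levels are uncertain. The 5 genes were picked by p in these same libraries, so the gap between their groups is not a separate result. Of their nearest coding genes 2 fell, 2 did not pass, 1 was untested and none rose.

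The largest falls by fold change were mostly of genes near the lower end of the control range, and 8 of the 10 had a knockdown mean under 0.5 CPM. LINC00222 was at 0.912, 0.444, 0.686, 0.93 and 0.632 CPM in controls. After knockdown it was at 0.0501, 0.0238, 0.0532, 0 and 0.0912 CPM, which was 8 counts over 5 libraries against 140 in controls. Its log2 fold change of -4.04 ± 0.448 (SE; adjusted p = 4.2e-06) therefore rests on few counts. FOXO3, a transcription factor gene 66.9 kb away on the same strand, fell from 87.8 to 24.8 CPM. LINC01252 fell by 3.92 on the log2 scale, from 206 counts in controls to 13, and by 4.58 when knockdown library 2 was left out. LINC00930 fell by 3.23, from 151 counts to 16, and by 4.68 without knockdown library 2, which held 0.285 CPM against 0 to 0.0544 CPM in the other 4. LINC02688 fell from 0.549 to 0.0379 CPM, LINC01030 from 0.634 to 0.0815, LINC02970 from 0.564 to 0.0712 and LINC00987 from 0.718 to 0.111. LINC00304 fell from 1.36 ± 0.456 to 0.131 ± 0.0738 CPM (SD, n = 5). It overlaps ACSF3, a mitochondrial acyl-CoA synthetase gene on the same strand that fell from 33 to 10.9 CPM. LINC01182, which spans 349 kb of chromosome 4 (13654374 to 14003756, plus strand), was the most abundant of the 10. It was at 29.3, 40.7, 24.1, 33.4 and 30.3 CPM in controls and at 5.06, 9.98, 3.46, 2.67 and 3.53 CPM in knockdown libraries (log2 fold change -2.76 ± 0.28, SE; adjusted p = 2.1e-06). Knockdown 2 was nearest to the controls there as well. Nearest coding genes of the 10 were lower in 5 cases, did not pass in 2, were untested in 3 and were higher in none.

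The windows around the RefSeq start of 2 rising and 2 falling genes are shown. These genes had the smallest p among LINC genes with exactly 1 window in the RefSeq table (GRCh38.p14). Each window runs 5′ to 3′ from 250 bases before to 50 bases after the start. Capitals mark exact matches, read on either strand, to 6 motifs: the CCAAT box (CCAAT), the GC box (GGGCGG), the TATA box (TATAAA), the AP-1 site (TGANTCA), the cyclic AMP response element (TGACGTCA) and the E-box (CACGTG). Matches of different motifs did not overlap in these windows. LINC01089 lies at chr12:121802897-121803196 (minus strand), LINC02298 at chr14:105093897-105094196 (plus strand), LINC02035 at chr3:122886263-122886562 (plus strand) and LINC01001 at chr11:131804-132103 (minus strand).
LINC01089: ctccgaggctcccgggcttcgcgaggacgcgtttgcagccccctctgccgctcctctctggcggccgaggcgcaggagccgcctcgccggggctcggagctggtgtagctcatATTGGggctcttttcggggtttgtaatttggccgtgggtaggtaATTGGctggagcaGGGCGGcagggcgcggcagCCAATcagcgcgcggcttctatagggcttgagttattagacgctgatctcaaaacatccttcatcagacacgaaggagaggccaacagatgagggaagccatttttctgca
LINC02298: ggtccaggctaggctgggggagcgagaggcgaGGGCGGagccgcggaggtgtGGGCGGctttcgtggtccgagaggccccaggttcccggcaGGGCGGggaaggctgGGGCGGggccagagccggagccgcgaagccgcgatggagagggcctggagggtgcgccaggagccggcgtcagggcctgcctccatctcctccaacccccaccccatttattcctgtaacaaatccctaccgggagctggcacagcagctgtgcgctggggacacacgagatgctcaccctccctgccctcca
LINC02035: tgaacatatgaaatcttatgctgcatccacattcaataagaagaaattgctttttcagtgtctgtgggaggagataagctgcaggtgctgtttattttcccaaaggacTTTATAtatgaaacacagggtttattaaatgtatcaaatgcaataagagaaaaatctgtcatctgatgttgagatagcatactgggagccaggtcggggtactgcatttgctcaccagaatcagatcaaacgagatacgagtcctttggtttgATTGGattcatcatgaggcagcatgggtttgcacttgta
LINC01001: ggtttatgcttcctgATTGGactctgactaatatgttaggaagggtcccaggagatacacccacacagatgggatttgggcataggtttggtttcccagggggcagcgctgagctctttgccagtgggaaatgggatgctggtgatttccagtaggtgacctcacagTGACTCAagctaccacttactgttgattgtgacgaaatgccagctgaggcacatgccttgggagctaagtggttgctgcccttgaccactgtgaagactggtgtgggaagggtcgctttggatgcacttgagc
The windows of both rises are rich in G and C, at 61% with 24 CpG pairs for LINC01089 and 70.3% with 22 for LINC02298. Those of the falls hold 39.3% with 3 CpG for LINC02035 and 52% with 3 for LINC01001. LINC01089 holds 3 CCAAT boxes and 1 GC box, LINC02298 4 GC boxes, LINC02035 1 CCAAT box and 1 TATA box, and LINC01001 1 CCAAT box and 1 AP-1 site. The RefSeq starts differ from the GENCODE gene starts used for positions, which lie 960 bases upstream for LINC01089, 1410 upstream for LINC02298, 428 downstream for LINC02035 and 7759 upstream for LINC01001.

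Over the 141 LINC genes with exactly 1 window in the table (161 of 243 had any), base composition went with the direction of change. The median G and C content was 63.7% in 45 windows of rising genes, 51% in 62 windows of falling genes and 58.2% in 34 windows of genes that did not pass. The median over all 35116 windows of the table was 58.7%. A GC box occurred in 55.6% of rising and 27.4% of falling windows (45% of all windows), and a TATA box in 13.3% and 17.7% (11.5% of all). A CCAAT box occurred in 40% and 41.9% (34.6% of all), an AP-1 site in 8.89% and 17.7% (7.71% of all), an E-box in 13.3% and 9.68% (7.26% of all) and a cyclic AMP response element in 2.22% and 1.61% (1.85% of all). In the 34 windows of genes that did not pass, the shares were 47.1% for the GC box, 2.94% for the TATA box, 17.6% for the CCAAT box and 0% for the E-box. Over 690 windows of other long non-coding genes at the same control level the median G and C content was 65%, and 60.4% held a GC box. A match describes letters in the window and not a bound site.

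Span, the distance from gene start to gene end with introns, also went with direction. Of 83 LINC genes spanning up to 10 kb, 40 rose and 27 fell, and their log2 fold changes had a median of 0.35. Of 55 spanning 10 to 30 kb, 17 rose and 25 fell (median -0.30), and of 57 spanning 30 to 100 kb, 14 rose and 21 fell (median -0.19). Of 47 tested genes spanning over 100 kb, 8 rose and 27 fell (median -0.80). Spearman's rho between span and log2 fold change was -0.23 over the 242 genes, which share the same 10 libraries, and -0.25 over the 2543 other long non-coding genes at that control level. In those other genes the medians of the 4 classes, from short to long, were 0.63, 0.29, -0.12 and -0.77, and in coding genes 0.72, 0.23, -0.50 and -1.48. The share of rises was lower in each longer class in LINC genes as in the other classes. The LINC medians and the share of falls were not in order, since the 30 to 100 kb class had a smaller share of falls (36.8%) than the 10 to 30 kb class (45.5%).

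**Figure D4:**
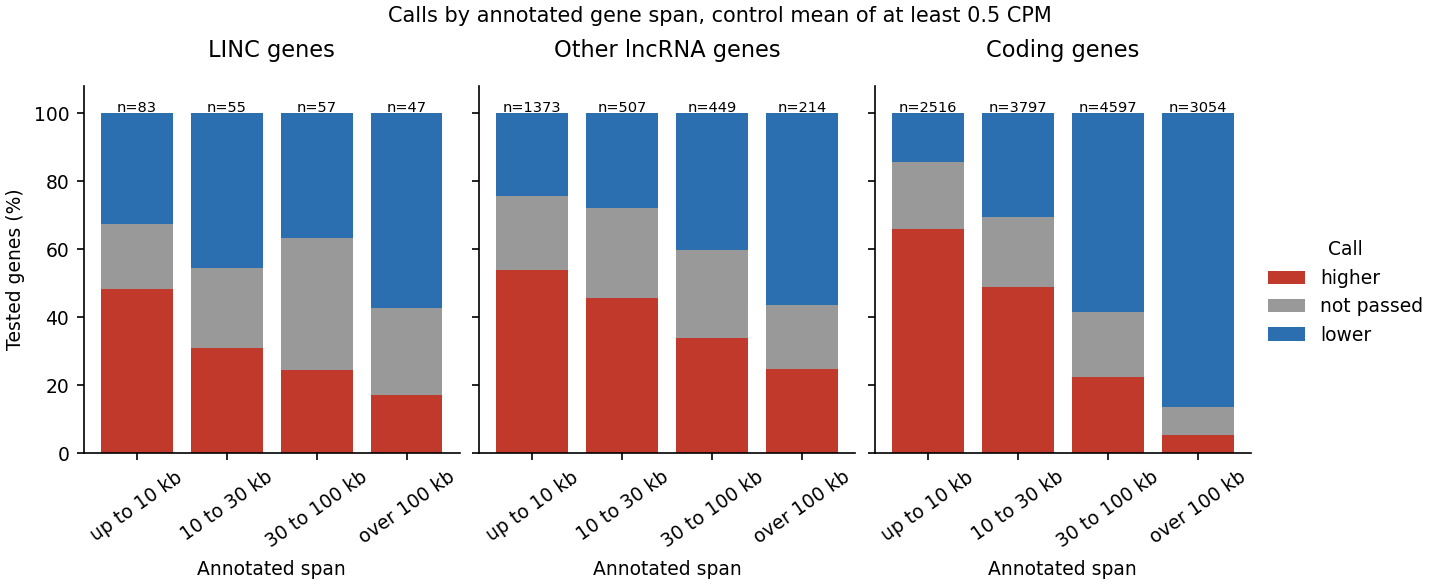
Share of tested genes that were higher, lower or did not pass the test, by annotated span, for LINC genes, other long non-coding genes and coding genes with a control mean of at least 0.5 CPM. Numbers above the bars are genes tested. The share of rises falls from the shortest to the longest class in all 3 panels, from 48.2% to 17% in LINC genes and from 66% to 5.24% in coding genes.

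Long LINC genes changed in both directions. LINC00174, which spans 118 kb, fell from 15.0 to 4.64 CPM (log2 fold change -1.72, adjusted p = 4.3e-07), and LINC00598, which spans 457 kb, fell from 0.759 to 0.132 CPM. LINC00472 (234 kb) rose from 5.89 to 13.4 CPM, LINC02987 (192 kb) from 5.52 to 16.7 CPM and LINC03006 (124 kb) from 7.17 to 16.9 CPM. These 5 genes were named after their values were seen. By number of exons, 15 of 26 genes with 1 exon rose (57.7%) and 9 fell (34.6%), with a median of 0.81. Of 99 with 2 or 3 exons 36 rose (36.4%) and 35 fell (35.4%), with a median of 0.08. Of 117 with more than 3 exons 28 rose (23.9%) and 56 fell (47.9%), with a median of -0.48. Among all tested genes 40.1% rose and 39.6% fell, and exon classes of other genes were not compared. Genes with more exons also span more, and the 2 properties were not separated.

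The position relative to coding genes was read from the annotation. Of the 242 tested genes 185 stood apart, 37 overlapped a coding gene (15 of these on the same strand) and 20 started within 5 kb of the start of a coding gene on the other strand, an arrangement called head-to-head. Genes standing apart rose in 57 and fell in 80 cases (median -0.25), and overlapping genes rose in 11 and fell in 15 (median -0.17). Head-to-head genes rose in 11 cases and fell in 5, with a median of 0.64. Their median span was 6.92 kb, against 19.4 kb for genes standing apart, and position and span were not separated. Of these 20 LINC genes 80% changed, beside 79.7% of all tested genes, and their coding partners rose in 9 and fell in 11 cases. In 16 of the 20 head-to-head pairs both genes changed, in 10 the same way and in 6 the opposite way. LINC00551 rose with ARGLU1, a splicing and transcription cofactor gene whose start is 0.071 kb away (log2 fold changes 1.72 and 1.75). LINC01126 rose with ZFP36L2, which encodes a protein that promotes decay of AU-rich messenger RNAs (1.42 and 1.70). LINC01248 rose with SOX11, a developmental transcription factor gene (1.97 and 0.79), and LINC01521 with PATZ1, a zinc finger transcription factor gene (0.95 and 1.03). LINC00205 fell with POFUT2, an O-fucosyltransferase gene (-0.94 and -1.12). In the opposite way, LINC01560 rose by 2.38 on the log2 scale while ZNF41 fell by 0.61, and LINC00235 rose by 0.84 while CAPN15 fell by 0.71. These pairs were picked after their values were seen, and both directions occurred among pairs whose starts are less than 1 kb apart.

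Over all 207 LINC genes whose nearest coding gene was tested (195 different neighbours), both changed in 128 pairs, of which 83 went the same way and 45 the opposite way. Spearman's rho between their log2 fold changes was 0.23. It was 0.43 over 73 pairs with a gap of up to 10 kb and no overlap, and 0.08 over 107 pairs with a larger gap. Over 27 overlapping pairs it was 0.13. Both genes changed in 14 of these, 6 the same way and 8 the opposite way. The correlation thus did not rise steadily with closeness. In the pairs with a gap of up to 10 kb, 20 of the falls had a falling neighbour and 3 a rising one. For rises these neighbours were divided, with 13 higher and 11 lower. The neighbours in this class had a median log2 fold change of -0.44, and coding genes at the same control level fell in 49.1% of cases. Over all pairs, falling LINC genes had 51 falling and 20 rising neighbours, and rising LINC genes 25 falling and 32 rising. These correlations are across genes of the same libraries and carry no test.

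**Figure D5:**
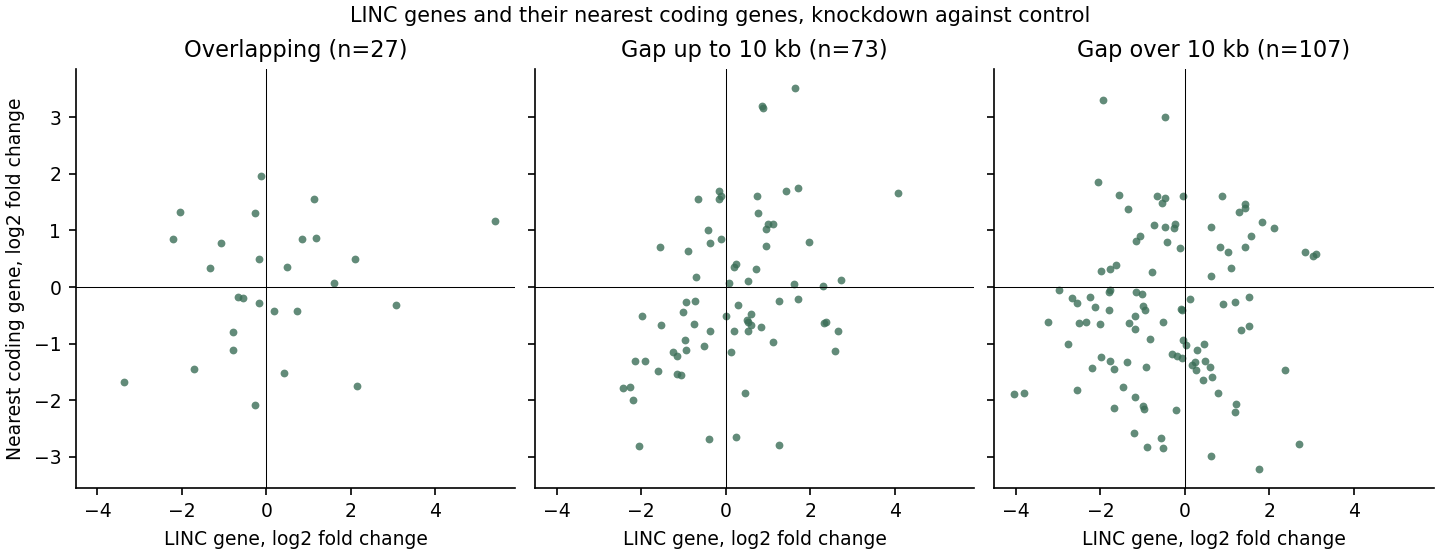
Log2 fold change of each LINC gene (x axis) against that of its nearest coding gene (y axis), in panels for overlapping genes, gaps up to 10 kb and larger gaps. Each point is 1 LINC gene. In the middle panel the lower left quadrant is well filled and the upper left one sparse, with rho 0.43, and in the right panel rho is 0.08. For the overlapping genes in the left panel rho is 0.13.

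LINC genes with a known or studied role gave mixed results. LINC01405, a skeletal and heart muscle RNA 13.1 kb from the ventricular myosin light chain gene MYL2, was at 36.5, 43.2, 32.2, 37.0 and 41.1 CPM in controls. It was at 86.9, 85.4, 91.0, 92.0 and 86.1 CPM in knockdown libraries, with no overlap (log2 fold change 1.18 ± 0.115, SE; adjusted p = 1.5e-06). MYL2 was at 113 and 95.5 CPM and did not pass (adjusted p = 0.33). LINC01405 was thus higher in cells in which 11 of 12 cardiomyocyte markers were lower. LINC00467 fell from 7.57 ± 0.474 to 3.92 ± 0.621 CPM (SD, n = 5; adjusted p = 2e-06), and LINC00662 from 27.5 ± 3.23 to 13.7 ± 2.71 CPM (adjusted p = 8.4e-06), both with no overlap. LINC00342 fell from 11.8 ± 3.15 to 7.38 ± 3.38 CPM with overlapping groups (adjusted p = 0.011), and near-identical copies make its level uncertain.

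LINC-PINT, a p53-induced RNA that acts with a chromatin repressor complex, was at 1.71 ± 0.363 and 1.45 ± 0.192 CPM (adjusted p = 0.12). MKLN1, which it overlaps on the other strand, fell from 91.6 to 22.9 CPM. LINC00632, whose locus gives rise to the circular RNA CDR1as, was at 8.22 ± 2.0 and 8.15 ± 0.513 CPM (adjusted p = 0.76), and LINC00265 at 3.49 ± 0.342 and 3.15 ± 0.356 CPM (adjusted p = 0.16). LINC01954, the one member within 1 Mb of LPIN1, the phosphatidate phosphatase gene of the study's title, was at 0.744 to 1.31 CPM in controls and 0.898 to 1.52 CPM after knockdown. Its log2 fold change of 0.30 ± 0.22 did not pass (SE; adjusted p = 0.22). Among genes that did not pass, LINC01128, LINC00623 and LINC00680 had the smallest standard errors. LINC00623 changed by 0.08 ± 0.0879 and LINC00680 by -0.21 ± 0.11 on the log2 scale (SE), and LINC00680 passed without control library 1 (adjusted p = 0.04). LINC00623 passed with upper-quartile factors (log2 fold change 0.28, adjusted p = 0.0068).

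Near-identical copies were found for 31 of the 243 genes, meaning at least 97% identity over at least 50% of a transcript in another gene. Of these 7 rose (22.6%, beside 40.1% of all tested genes), 12 fell (38.7%, beside 39.6%) and 12 did not pass. The share that changed was 61.3%, beside 79.7% of all tested genes and 75.8% of LINC genes without a copy. LINC01001 on chromosome 11 shares near-identical sequence with LINC01002, LINC01347, LINC02887 and LINC00265, on chromosomes 19, 1, 17 and 7. The first 4 fell, by 1.80, 1.78, 1.46 and 1.87 on the log2 scale, and LINC00265 did not pass (-0.19, adjusted p = 0.16). Because reads may be divided or lost among them, they may not be separate observations. On chromosome 1, LINC01145 and LINC01138 fell by 1.02 and 1.06, while their copies LINC00623 and LINC00869 did not pass (adjusted p = 0.39 and 0.051). Under other settings LINC00869 was called higher, among them by DESeq2 (adjusted p = 0.03) and without knockdown library 2 (adjusted p = 0.0062), and LINC00623 with upper-quartile factors (adjusted p = 0.0068).

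At the edge of the choice, the 3 genes just inside 0.5 CPM were LINC01324, LINC01237 and LINC01275. LINC01324 had a control mean of 0.504 CPM made of values from 0.096 to 1.03, and a knockdown mean of 0.0786. LINC01237 was at 0.515 and 0.556 CPM, and LINC01275 at 0.527 and 0.789. The call of LINC01275 (adjusted p = 0.036) was lost when control 1, 2, 4 or 5 or knockdown 1 or 5 was left out (adjusted p 0.057 to 0.1). It was also lost without knockdown libraries 1 and 2 together (adjusted p = 0.16) and without the filter on low counts (adjusted p = 0.15). Just outside were LINC02613 at 0.491 and 0.0408 CPM, LINC02245 at 0.49 and 0.862, and LINC02965 at 0.486 and 2.54.

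The genes that turn over nuclear RNAs changed in both directions. The list held 25 genes of the nuclear exosome, its adaptors, cap-binding partners and nuclear RNases. Of these 15 rose (60%, beside 40.1% of all tested genes), 9 fell (36%, beside 39.6%) and 1 did not pass, and the median was 0.35 on the log2 scale. Among exosome subunits, EXOSC2 rose from 22.3 to 66.5 CPM, EXOSC8 from 24.5 to 58.3 CPM and EXOSC5 from 6.47 to 16.7 CPM. SRRT, which links the cap-binding complex to RNA turnover, rose from 87.6 to 422 CPM, and PABPN1, a nuclear poly(A)-binding protein gene, from 73.9 to 262 CPM. EXOSC10, a catalytic subunit of the nuclear exosome, fell from 43.2 to 24.5 CPM, and ZC3H18, an adaptor between cap-binding complex and exosome, from 53.0 to 23.0 CPM. MTREX, the helicase of the exosome, fell from 67.3 to 41.1 CPM. RNASEH1, which encodes an RNase H that cuts RNA in hybrids with DNA, fell from 41.3 to 12.3 CPM. The part of these changes in the LINC levels was not tested.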

How the data were processed

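Total RNA of 10 libraries was measured, 5 per group, grouped by the sample titles. The authors deposited raw read counts per gene, not normalised. Per the labels, libraries were stranded and depleted of ribosomal RNA. Per the submitters' processing notes and design text, reads were trimmed with Trim Galore 0.65, aligned to GRCh38 with STAR 2.7.0 and GENCODE 38 and counted with HTSeq, with a version and strand setting not given in the sources used here. Without that setting, overlapping genes on opposite strands cannot be told apart with certainty.

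Names, classes and positions came by identifier from GENCODE 44 (61481 of 78932 rows matched). Printed levels are plain CPM. Fold changes come from edgeR 4.0.16 in R 4.3.3 (filterByExpr, trimmed mean of M-values, robust quasi-likelihood F test, group as the only term, Benjamini-Hochberg over 21033 genes, threshold 0.05), tested on simulated data. They are relative to the bulk of genes, not to RNA per cell. Standard errors are the log2 fold change over the square root of F. Copies were searched with blastn 2.17.0+. Totals were 32.9 to 45.1 in units of 1e6 counts, and every pair of libraries differed by more than sampling noise (chi-square over degrees of freedom at least 4.13).

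Members and gene lists were chosen with earlier results of these data known. Named were the 6 members highest in controls, the 10 largest rises and falls without overlap, the 5 rising and 5 falling members of smallest p, studied members, those within 1 Mb of LPIN1, 3 on each side of 0.5 CPM, 3 that did not pass with the smallest standard error, and nearest coding genes, not all of which are reported here. Alternatives were DESeq2 1.42.0 and its size factors, upper-quartile factors, limma-voom (limma 3.58.1), other filters, no robust dispersion, mitochondrial genes removed, a replicate block, libraries left out and other choices of members. Leaving out members with a near-identical copy was chosen after seeing the data. Figures were drawn with matplotlib 3.10.9.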

Additional observations from a re-analysis of the deposited data

Results flagged for a closer look

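In the 88 groups of 5 values examined (44 named LINC genes in 2 groups), 5 values stood further from the other 4 than Dixon's 95% limit allows, and chance alone flags about 5% of groups. Knockdown 2 was low for LINC01089, at 181 CPM against 254 to 267 CPM in the other knockdown libraries. Knockdown 2 was high for LINC00930, at 0.285 CPM against 0 to 0.0544 CPM. Knockdown 1 was high for LINC00173, at 7.42 CPM against 4.03 to 4.63 CPM. Control 5 was low for LINC02960, at 0.658 CPM against 1.22 to 1.44 CPM, and high for LINC01503, at 5.53 CPM against 3.89 to 4.26 CPM. The cause of these values was not tested.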

How the results depend on the processing

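Of 16773 genes called, 79 LINC rises and 100 falls, none of the 179 LINC calls reversed under the 20 other fits. A reversal needs a call in the other direction, and calls were lost and gained. Upper-quartile factors lost 14 of the 179 calls and gained 14 others. Without knockdown library 5, 14 were lost and 2 gained, and without knockdown library 3, 13 were lost and 4 gained. The block fit on replicate number gave 78 rises, 96 falls and 16425 genes, without the call of LINC01275 (adjusted p = 0.071) and with LINC00869 called higher (adjusted p = 0.011). Correlations of same-numbered libraries were -0.17, 0.221, 0.105, -0.000432 and -0.0361. Among same-numbered libraries, only those numbered 2 were each other's closest match. Whether the numbers pair the samples is not in the labels, and these values cannot decide it. Leaving out 1 library gave 74 to 82 rises, 92 to 107 falls, a median of -0.25 to -0.17 and 16361 to 17650 genes. Upper-quartile factors, which shift the median of all genes by 0.198, gave a median of 0.01, 93 rises and 86 falls. A filter at a mean of 1 CPM left 160 LINC genes, with 45 falls and a median of 0.34, since 57 called genes were no longer tested. Choosing members over all 10 libraries gave 128 rises and a median of 0.44, and over the knockdown libraries 153 rises, 53 falls and a median of 0.82. A control threshold of 1 CPM gave 52 rises and 65 falls among fewer genes. Without filter beyond 1 count 20167 of 45791 genes passed. Among the 43 named members tested, signs turned only in genes that did not pass: LINC01128 (0.15 upper-quartile, 0.01 at 1 CPM), LINC00265 (0.01 upper-quartile), LINC00632 (0.15 upper-quartile, 0.01 at 1 CPM, 0.02 without knockdown libraries 1 and 2, -0.15 to 0.05 leaving out 1), LINC01237 (-0.19 to 0.3 leaving out 1) and LINC00623 (-0.0013 without knockdown libraries 1 and 2). The cause of these shifts was not tested. Depth limits the low genes: the control mean of LINC01324 rests on 97 counts over 5 libraries.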

Other observations

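LINC genes under 0.5 CPM in controls fall outside the 243, and the 6 with the highest knockdown levels are given here as values only, since they were picked by those levels. LINC00324 (chromosome 17, 8220624 to 8224043, GRCh38) was at 0.24 to 0.658 CPM in control libraries and at 6.86, 4.56, 8.83, 9.22 and 8.33 CPM in knockdown libraries. LINC00207 was at 0.452 ± 0.262 CPM in controls and 6.35 ± 0.807 CPM after knockdown (SD, n = 5), and LINC02687 at 0.406 ± 0.0808 and 4.2 ± 0.902 CPM. LINC01273, 14.2 kb from the transcription factor gene CEBPB, was at 0.347 ± 0.189 and 3.92 ± 1.34 CPM. LINC00482 was at 6.01 and 6.06 CPM in knockdown libraries 1 and 2 and at 1.93 to 2.71 CPM in the other 3, against 0.209 to 0.505 CPM in controls. LINC01023 was at 0.448 ± 0.156 and 3.2 ± 0.712 CPM.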
